A study of Homo sapiens with 4 samples.

Results

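Solute carrier genes encode membrane proteins that move amino acids, sugars, ions, metals, nucleosides and metabolites across the plasma membrane and the membranes of organelles. The splicing of their transcripts was followed in U87MG cells, a glioblastoma cell line, after transfection of a decoy oligonucleotide for the splicing factors RBFOX1 and RBFOX2. Members were all alternative splicing events whose gene symbol starts with SLC followed by a digit. This gave 2013 of 121269 events, in 222 of 12219 gene symbols. Skipped exons made up 1423 of them and mutually exclusive exons 430. A further 72 were choices of a 3′ splice site, 63 were choices of a 5′ splice site and 25 were retained introns. The symbol rule also took in 7 symbols that do not name a transporter (SLC9A3R1, SLC9A3R2, SLC7A6OS, SLC2A4RG, SLC4A1AP, SLC22A18AS and SLC2A1-AS1), with 25 events.

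The study compared 2 libraries of cells given RBFOXi with 2 libraries of cells given SCRM, a scrambled control, each at 2.5 µM. RBFOXi is a single stranded 2′-O-methyl RNA that repeats the RBFOX1/2 motif, and in replicate 1 the labels describe it as carrying the dye Cy5. All cells were of 1 cell line, in culture. The motif is TGCATG in the letters of DNA, with U for T in RNA, and was read on the strand of the gene. It is bound by RBFOX proteins, which as a rule favour an exon when they bind in the intron after it and disfavour it when they bind before it.

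Solute carriers use alternative splicing in several ways. Some genes choose between a pair of exons that encode versions of the same transmembrane stretch. Others skip a short exon that adds residues to a cytoplasmic tail, or use other 5′ exons that change the N-terminus. SLC25A3, the phosphate carrier of the inner mitochondrial membrane, is a known case of the first kind, with a first exon of the pair used in heart and skeletal muscle and a second used in most tissues. Both are shown as a well covered pair of this kind. They lie on chromosome 12 of hg19, plus strand, at chr12:98989211-98989335 and chr12:98989505-98989626, and both are coding in full.
SLC25A3 first exon: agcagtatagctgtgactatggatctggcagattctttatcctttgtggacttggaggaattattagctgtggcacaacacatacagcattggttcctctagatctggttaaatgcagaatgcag
SLC25A3 second exon: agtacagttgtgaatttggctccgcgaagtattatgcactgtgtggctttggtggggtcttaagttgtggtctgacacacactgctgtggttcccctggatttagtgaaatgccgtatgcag
The intron of 169 nt between them (chr12:98989336-98989504) holds TGCATG 2 times, here in capitals.
SLC25A3 intron: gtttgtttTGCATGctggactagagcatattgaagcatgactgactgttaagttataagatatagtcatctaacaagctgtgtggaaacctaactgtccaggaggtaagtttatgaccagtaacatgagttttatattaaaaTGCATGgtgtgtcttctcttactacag

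The start of the downstream intron is shown for 5 of the 10 member exons that have the motif in its first 60 nt, namely the 4 with intermediate inclusion in these cells and a well covered exon of SLC35E1. TGCATG is in capitals, and each sequence starts at the first base of the intron (hg19).
SLC9A5, chr16:67289088-67289147, plus strand: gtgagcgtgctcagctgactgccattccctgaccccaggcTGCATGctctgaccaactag
SLC35B1, chr17:47784645-47784704, minus strand: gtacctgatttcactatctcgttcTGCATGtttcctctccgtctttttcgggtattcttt
SLC37A2, chr11:124954216-124954275, plus strand: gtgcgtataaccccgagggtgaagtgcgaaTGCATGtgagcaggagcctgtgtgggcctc
SLC9B2, chr4:103949844-103949903, minus strand: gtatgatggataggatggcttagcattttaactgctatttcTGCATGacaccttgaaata
SLC35E1, chr19:16678783-16678842, minus strand: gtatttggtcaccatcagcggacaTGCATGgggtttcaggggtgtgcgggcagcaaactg

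Each event came with 2 read counts per library, 1 for transcripts that keep the alternative region (inclusion) and 1 for those that lack it (skipping). After division of each count by its effective length, the share of inclusion is the proportion spliced in (PSI), which is 0 where every transcript lacks the region and 1 where every transcript keeps it. Delta PSI was the mean PSI with RBFOXi minus the mean with SCRM. Summed over the member skipped exon events, the counts came to between 844805 and 1123678 per library. The median depth of the tested member skipped exons was 306.5 mean counts per library. The SCRM replicates differed from each other in how reads were spread over genes. Among 175 solute carrier genes with at least 50 mean counts, the count of the deepest event, as a share of all counts of the library, differed by over 2-fold between the SCRM replicates in 44.6%, with replicate 1 lower in 67 genes and higher in 11, against 5.71% between the RBFOXi replicates. Over all 10037 genes of that depth the shares were 39.8% and 3.85%. The glial and mesenchymal markers VIM, CD44, TNC and FN1 were each counted by at least 17378 reads at their deepest event in every library. TNC had the lowest of these values in SCRM replicate 1, beside 60036 to 101713 reads in the other 3 libraries. NES was counted by 179 to 432 reads, the neuronal gene SYT1 by 8 to 91 and the oligodendrocyte gene MBP by 0 to 25. GFAP, AQP4, S100B, PTPRC, EPCAM and PECAM1 had no skipped exon event, so their level could not be read from these tables.

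No solute carrier event was called changed after RBFOXi. Of the 663 tested member skipped exons, 0 had an adjusted p-value under 0.05 (limma, Benjamini-Hochberg over all 39615 tested events) and a delta PSI of 0.1 or more in size, where 0.0682% of all tested skipped exons were called. An absolute delta PSI of at least 0.1, whatever the p-value, was found in 43 members (6.49%, beside 4.83%). At an unadjusted p-value under 0.05 there were 17 member events (2.56%), 6 lower and 11 higher with RBFOXi, against 3.61% of all tested events. A quasi-binomial F test on the counts also called 0 of the members, with 14 at an unadjusted p-value under 0.05. The share of 3.61% is from limma and is no background for these 14. The smallest adjusted p-value of a member skipped exon rounded to 1.00 in limma. The calls were also 0 for members among 414 mutually exclusive, 38 alternative 3′, 38 alternative 5′ and 24 retained intron events, each beside a background of 0% of all tested events in that table. Unadjusted p-values under 0.05 (limma) were found for 5 of the exclusive pairs (1.21%, beside 1.51% of all tested), 1 of the 3′ sites (2.63%, beside 3.32%), 3 of the 5′ sites (7.89%, beside 3.59%) and 0 of the introns (beside 1.74%). The quasi-binomial F test called 0 members in these tables as well and gave 8, 1, 2 and 0 at an unadjusted p-value under 0.05. The limma shares are no background for these counts either. Without SCRM replicate 1 the member calls were likewise 0 in all 5 tables. As a scale for the same test, the exons of ABI1, FMNL3 and FAM126A that the study followed by RT-PCR were read. Their delta PSI was -0.374, -0.270 and -0.496, with adjusted p-values of 0.0189, 0.00214 and 0.000741 (limma). With a pseudocount of 0.1 these adjusted p-values were 0.431, 0.206 and 0.128 (limma), so the scale exons were not called at that setting.

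The median delta PSI of the member skipped exons was -0.00028, beside -5.6e-05 for all tested skipped exons. The groups did not overlap, hereafter called separated, in 27.8% of the members, against 30.8% of all tested events. RBFOXi was the lower group in 94 of these (14.2% of members, beside 16.4%) and the higher in 90 (13.6%, beside 14.3%). Counting 1 event per exon, the tested members came to 501 exons in 162 genes. The median absolute delta PSI of these exons was 0.0112, while the 2 RBFOXi replicates differed by a median of 0.0155 and the 2 SCRM replicates by 0.0171. Differences of at least 0.1 were seen between RBFOXi and SCRM in 26 exons, between the RBFOXi replicates in 47 and between the SCRM replicates in 57. A difference between group means averages over replicates and so varies less than a difference between single libraries, and these values are given as a description. The absence of a call does not show that inclusion was equal. The 95% interval of the change had a median width of 4.40 log2 units of odds, and it held 0 for 493 of the 501 exons.

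Most of the large differences were found at shallow events. Of the 93 member exons with under 100 mean counts per library, 22 (23.7%) had an absolute delta PSI of at least 0.1, beside 21.8% of all tested exons at that depth. From 100 to 300 counts the number was 3 of 145 (2.07%, beside 5.15%), and from 300 to 1000 counts 1 of 176 (0.568%, beside 1.27%). None of the 87 member exons with 1000 or more counts reached 0.1, where 37 of 10093 such exons in all genes did (0.367%). The largest absolute delta PSI among these 87 was 0.0586.

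**Figure D1:**
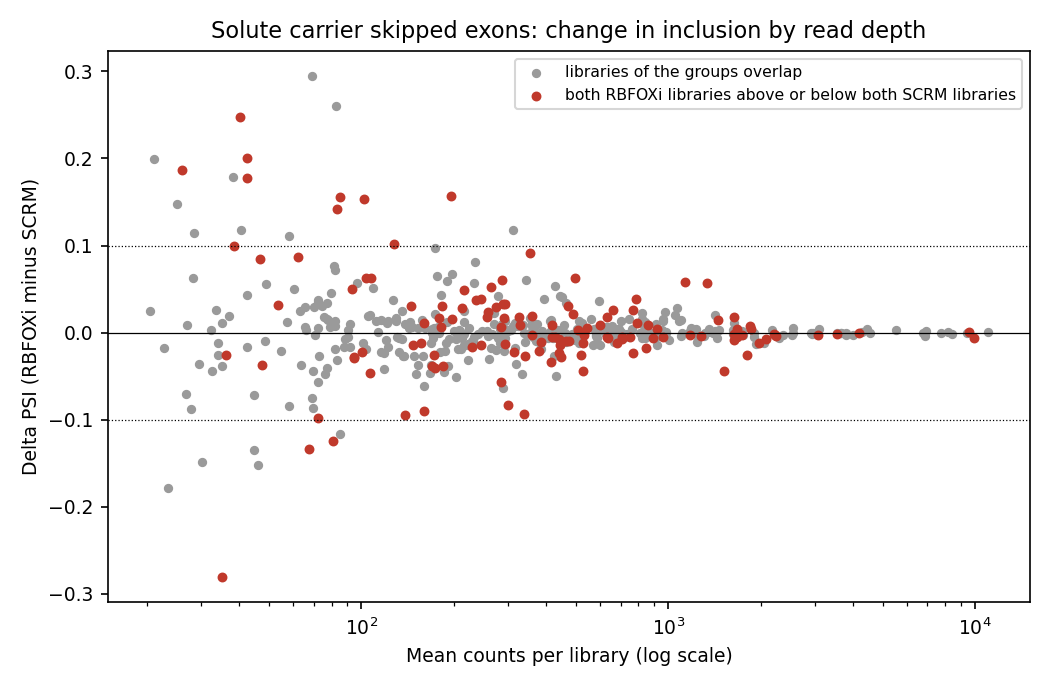
Delta PSI (RBFOXi minus SCRM, vertical axis) of the 501 tested solute carrier exons against the mean counts per library (horizontal axis, log scale), with dotted lines at 0.1 and -0.1. Each point is 1 exon, red where the groups did not overlap, and the spread narrows from about 100 counts upwards, with no exon of 1000 or more counts past a line.

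Most of these exons were near-constitutive in U87MG cells. PSI with SCRM was at least 0.95 for 292 of the 501 exons (58.3%), beside 65.7% of all tested exons. It lay from 0.1 to 0.9 for 107 exons in 61 genes (21.4%, beside 17.9%) and was at most 0.05 for 30. The length was a multiple of 3 for 180 of the 501 exons (35.9%), beside 42.6% of all tested exons, and for 45 of the 107 with intermediate PSI (42.1%, beside 47.4%). Of the 107 exons with intermediate PSI, 75 had a higher and 32 a lower mean PSI with RBFOXi (median delta PSI 0.0225). All tested exons in that range leaned the same way (median 0.0156), and 5 of the 107 were separated downwards (4.67%, beside 10.8%) and 22 upwards (20.6%, beside 18.8%). Of the 292 exons at 0.95 or more, 189 were lower and 103 higher, beside 11725 and 8390 of 20118 such exons in all genes. These ranges were set on the SCRM PSI that delta PSI subtracts. The direction within a range is thus partly set by that choice and is given as a description.

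Groups were set by SLC family number and named for a typical substrate, which single members may not carry. Transporters of inorganic ions held the most intermediate exons, 31 of 80, with a median PSI of 0.936 with SCRM. Mitochondrial carriers followed with 17 of 94. The amino acid transporters were nearly all included, with 10 of 88 exons intermediate and a median PSI of 0.986. The 122 tested events of amino acid transporters, whose median delta PSI was -0.0029, separated downwards in 26 cases (21.3%) and upwards in 9 (7.38%), beside 16.4% and 14.3% of all tested skipped exons. In the ion transporters 11 of 115 events separated downwards (9.57%) and 21 upwards (18.3%), and in the sugar transporters 3 (4.55%) and 10 (15.2%) of 66. The differences of these shares from those of all events were not tested. The groups also differ in PSI, with which direction varied in all genes. Counting 1 event per exon, 20.2% of all tested exons at SCRM PSI of 0.95 or more separated downwards and 11.2% upwards. From 0.1 to 0.9 these shares were 10.8% and 18.8%. Mitochondrial carriers (16 lower and 17 higher of 117) and metal transporters (8 and 8 of 69) were even in direction. Transporters of nucleotide sugars separated in 9 lower and 12 higher of 60 events, and those of lipids, choline and bile acids in 7 and 6 of 30. The remaining groups had at most 24 tested events each. In each group the calls were 0 (limma), and the 39 tested events of 1 gene, SLC9A5, gave 14 of the 21 upward events of the ion transporters. The 19 tested events of SLC38A10, at 9 exons, gave 8 of the 26 downward events of the amino acid transporters.

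The members with the largest separated changes rested on few reads. Together, 24 member events at 20 exons in 13 genes were separated by a delta PSI of 0.1 or more in size (3.62%, beside 3.09% of all tested events), 7 lower and 17 higher. Their median depth was 57.9 mean counts per library. Of the 24, 7 were events of SLC9A5. Values are given at the deepest event of each exon unless another is named.

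SLC10A7 belongs to the bile acid transporter family. Its exon of 111 nt on chromosome 4 (147177978 to 147178088, minus strand, coding in part) had PSI of 0.377 and 0.378 with RBFOXi and of 0.738 and 0.579 with SCRM, on 14 to 55 counts per library. Both RBFOXi libraries were lower, with a delta PSI of -0.281 ± 0.0795 (SE, n = 2 libraries each) and a change in log2 odds of -1.56 ± 0.75 (SE, limma, unadjusted p = 0.0555). SLC35E2B, a member of the nucleotide sugar transporter family, had a noncoding exon of 418 nt at 0.336 and 0.361 against 0.441 and 0.525 (delta PSI -0.134). SLC22A15, of the organic ion transporter family, had a coding exon of 213 nt at 0.874 and 0.836 against 1 and 0.960 (delta PSI -0.125), on 0 to 8 skipping counts per library. The groups did not overlap in these exons, and each adjusted p-value rounded to 1.00 (limma).

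Among exons with higher inclusion, SLC9A5 and SLC29A2 led. SLC9A5 is NHE5, a sodium-proton exchanger known from brain. Its exon of 92 nt on chromosome 16 (67289742 to 67289833, plus strand, coding in full) had PSI of 0.893 and 0.857 with RBFOXi and 0.606 and 0.649 with SCRM. The difference was 0.247 ± 0.0277 (SE, n = 2 libraries each) on 13 to 70 counts per library, with 2 to 8 skipping counts in each (limma, unadjusted p = 0.0565). A longer form of the exon, 178 nt with the same 3′ end, had PSI of 0.928 and 0.888 against 0.753 and 0.751. Its skipping counts equal those of the exon of 92 nt in every library, so the 2 events are not independent.

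SLC29A2 is the equilibrative nucleoside transporter ENT2, which carries nucleosides across the plasma membrane without a gradient of its own. Its coding exon of 135 nt, a multiple of 3, had PSI of 1 and 0.940 with RBFOXi and of 0.714 and 0.825 with SCRM. Skipping counts were 0 and 1 in the RBFOXi libraries and 8 and 3 in the SCRM libraries. The delta PSI was 0.201 ± 0.0630 (SE, n = 2 libraries each) and the change in log2 odds 2.57 ± 1.10 (SE, limma, unadjusted p = 0.0356). The exon is shown in capitals with 15 nt of intron on each side (chr11:66135993-66136157, minus strand), since it had the largest delta PSI of the 8 member exons with an unadjusted p-value below 0.05 (limma) at the deepest event.
SLC29A2 exon: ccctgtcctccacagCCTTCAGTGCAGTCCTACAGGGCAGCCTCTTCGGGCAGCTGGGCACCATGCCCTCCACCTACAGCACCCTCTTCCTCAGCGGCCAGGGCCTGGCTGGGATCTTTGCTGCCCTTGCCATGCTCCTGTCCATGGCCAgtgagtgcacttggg

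The exon with the most counts among the separated exons higher by at least 0.1 was in SLC9B2, the sodium-proton exchanger NHA2. Its coding exon of 171 nt on chromosome 4 (103978958 to 103979128, minus strand) had PSI of 0.926 and 0.724 with RBFOXi and of 0.683 and 0.655 with SCRM, on 85 to 286 counts per library. The RBFOXi replicates differed by more than the nearer RBFOXi library differed from SCRM, and without RBFOXi replicate 1 the delta PSI was 0.0551 in place of 0.156. In SLC25A36, a mitochondrial carrier of pyrimidine nucleotides, an exon of 37 nt had PSI of 0.510 and 0.343 against 0.296 and 0.249. It is short for an internal exon and is shown in capitals between 15 nt of intron on each side (chr3:140685827-140685893, plus strand).
SLC25A36 exon: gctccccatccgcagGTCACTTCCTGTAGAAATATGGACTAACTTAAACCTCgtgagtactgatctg
SLC2A13, the proton-coupled myo-inositol transporter, had 2 coding exons in this group. The exon of 164 nt had PSI of 0.923 and 1 against 0.703 and 0.864, and that of 109 nt 1 and 1 against 0.732 and 0.985. In the second, SCRM replicate 1 alone was low, with 4 skipping counts of 27. A noncoding exon of 173 nt in SLC25A43, of the mitochondrial carrier family, had PSI of 0.698 and 0.766 against 0.551 and 0.539. All these exons had an adjusted p-value of 1.00 in limma. The SLC2A13 exon of 164 nt overlaps another annotated gene, C12orf40. The largest delta PSI of any tested member exon, 0.295, was not separated: an exon of 178 nt in SLC35G1, of the nucleotide sugar transporter family, had PSI of 1 and 0.970 with RBFOXi and of 0.408 and 0.973 with SCRM, so that SCRM replicate 1 alone was low. It was chosen after its values were seen. Over all 663 tested member skipped exon events, delta PSI ran from -0.338 to 0.295, the former at an event that is not the deepest of its exon.

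**Figure D2:**
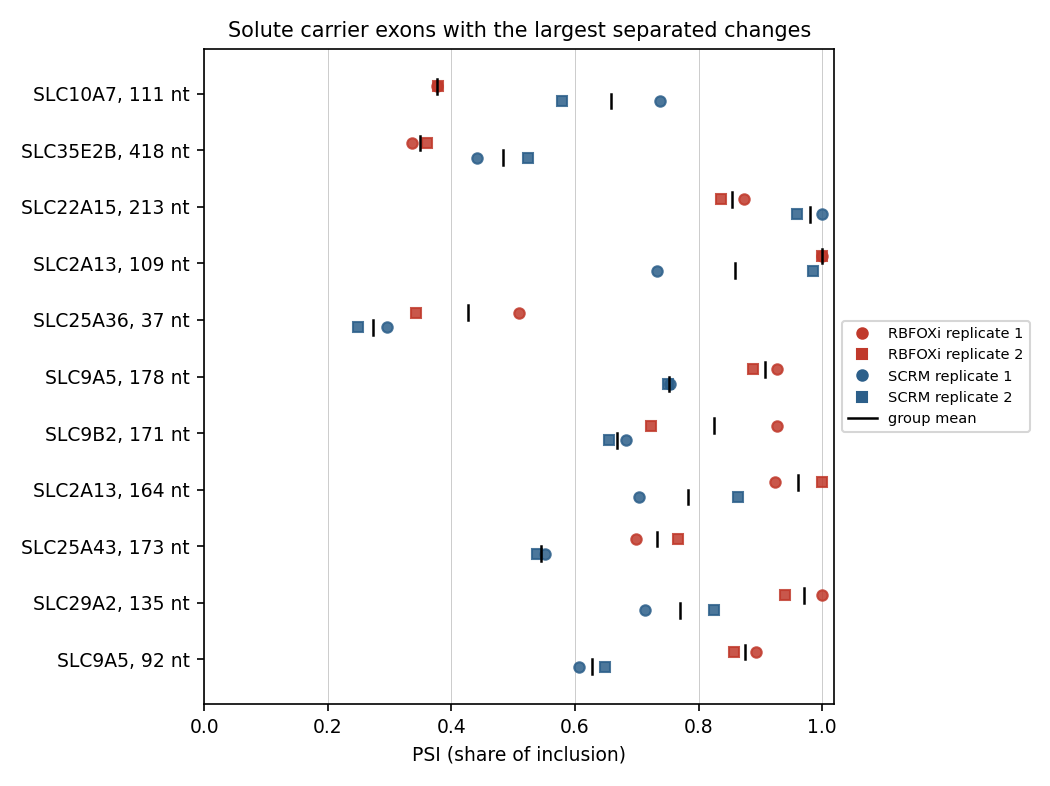
PSI in each library (horizontal axis) for the 11 solute carrier exons with the largest separated changes that are named in the text, 1 row per exon with its length. Red marks are RBFOXi and blue marks SCRM, circles replicate 1 and squares replicate 2, and black bars the group means, with SLC10A7 at a delta PSI of -0.281 and the SLC9A5 exon of 92 nt at 0.247 as the extremes.

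The smallest unadjusted p-values among the skipped exons belonged mostly to small differences at nearly constitutive exons. SLC1A5 is ASCT2, the main glutamine transporter of many tumour cells. Its coding exon of 43 nt on chromosome 19 (47287774 to 47287816, minus strand) was skipped in 4 of 559 and 4 of 906 counts with RBFOXi and in 0 of 731 and 0 of 817 with SCRM. PSI was 0.994 and 0.996 against 1 and 1, a delta PSI of -0.0051 (limma, unadjusted p = 0.0110, adjusted p = 1.00). The first TGCATG of the downstream intron, in capitals, starts at base 101 (chr19:47287654-47287773, minus strand).
SLC1A5 intron: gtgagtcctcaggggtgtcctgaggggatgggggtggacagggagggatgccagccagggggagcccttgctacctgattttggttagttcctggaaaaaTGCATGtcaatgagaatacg
SLC33A1, the acetyl-CoA transporter of the endoplasmic reticulum, had 2 neighbouring coding exons in this set. The exon of 185 nt had PSI of 1 and 0.985 with RBFOXi and of 0.850 and 0.959 with SCRM (delta PSI 0.0874), and the exon of 118 nt 1 and 0.988 against 0.914 and 0.969 (0.0522). Both had 0, 2, 5 and 5 skipping counts in RBFOXi replicates 1 and 2 and SCRM replicates 1 and 2. The event of the exon of 185 nt was not its deepest, at which the delta PSI was -0.0050. SLC12A4, the potassium-chloride cotransporter KCC1, had an exon of 105 nt at 0.987 and 0.994 against 0.998 and 0.999 (delta PSI -0.0083). SLC35B1, which exchanges ATP and ADP across the membrane of the endoplasmic reticulum, had an exon of 131 nt at 0.952 and 0.916 against 0.968 and 0.988 (-0.0439). In all of these the RBFOXi libraries lay outside the SCRM range, and the adjusted p-values were 1.00 (limma).

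The 12 member exons with intermediate PSI and the most counts were also read. They were chosen by depth, after the values were seen, and depth did not rank their precision. The SE of the change in log2 odds was 0.32 for SLC25A26 and 0.65 for SLC39A9 (limma). Outside the 12, it was 0.32 for the SLC7A6 exon of 87 nt, which had fewer counts. In SLC25A26, the mitochondrial carrier of S-adenosylmethionine, the coding exon of 157 nt had PSI of 0.718 and 0.773 with RBFOXi and of 0.709 and 0.776 with SCRM, on 1301 to 1729 counts per library. The replicates of each group spanned nearly the same range, and the change in log2 odds was 0.02 with a 95% interval from -0.67 to 0.71 (limma). SLC50A1, the sugar transporter SWEET1, had an exon of 162 nt at 0.761 and 0.785 against 0.770 and 0.736. Its exon of 124 nt was at 0.589 and 0.581 against 0.480 and 0.575, with SCRM replicate 1 alone apart (change in log2 odds 0.33, interval -0.28 to 0.95). The zinc transporter SLC39A13 (ZIP13) had an exon of 108 nt at 0.859 and 0.734 against 0.856 and 0.711, so that replicates with the same number were alike and the groups were not apart. Another zinc transporter, SLC39A4 (ZIP4), had an exon of 153 nt at 0.533 and 0.580 against 0.514 and 0.522 (0.22, interval -0.46 to 0.90).

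In SLC39A9 (ZIP9), also a zinc transporter, an exon of 367 nt had PSI of 0.965 and 0.940 against 0.852 and 0.936, and SCRM replicate 1 held 273 counts there, where the deepest library held 1746. The zinc transporter SLC30A5 (ZnT5) had an exon of 129 nt at 0.926 and 0.884 against 0.864 and 0.916. SLC41A3, of the magnesium transporter family, had an exon of 108 nt at 0.915 and 0.9 against 0.866 and 0.897. SLC38A7, which exports glutamine from lysosomes, had a noncoding exon of 224 nt at 0.827 and 0.915 against 0.820 and 0.875. SLC15A4, a lysosomal transporter of histidine and peptides, had an exon of 169 nt at 0.884 and 0.866 against 0.868 and 0.851. SLC27A5, an enzyme that activates bile acids, had an exon of 131 nt at 0.910 and 0.905 against 0.916 and 0.843, and SLC12A9, of the cation-chloride cotransporter family, one of 309 nt at 0.909 and 0.888 against 0.870 and 0.875. The delta PSI of the 12 exons ran from 0.0028 to 0.0586. The groups overlapped in 7 of them, and each interval of the change held 0.

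**Figure D3:**
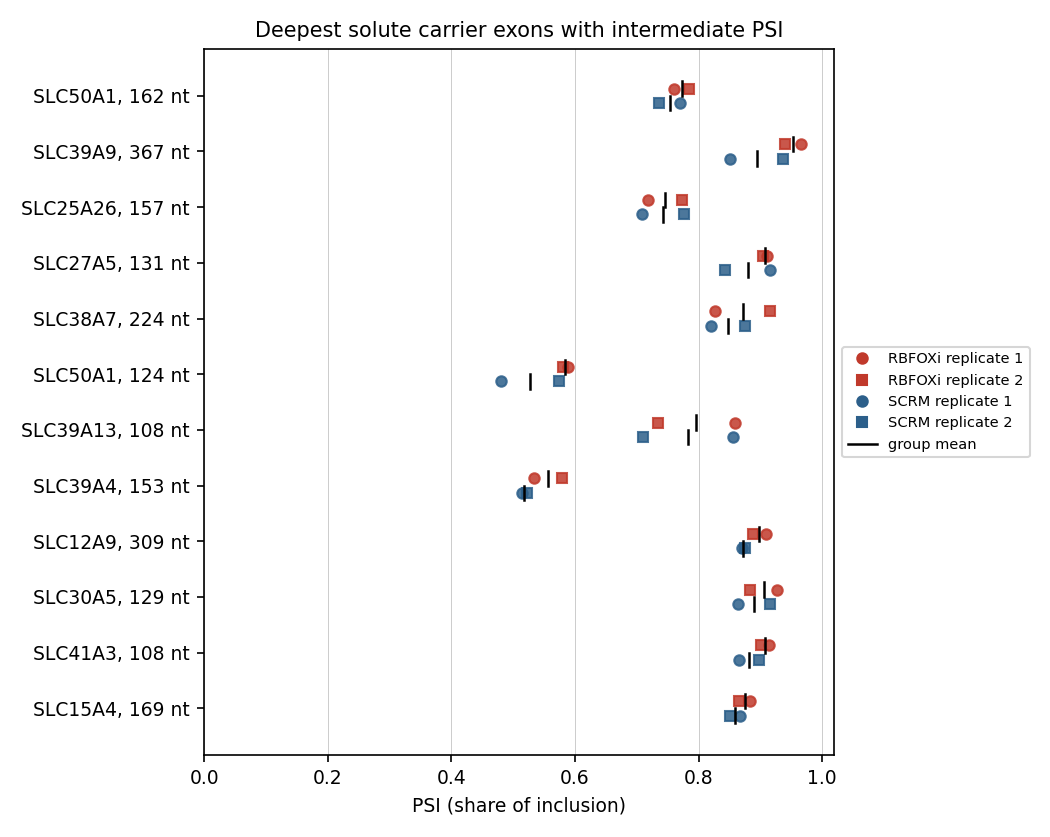
PSI in each library (horizontal axis) of the 12 deepest solute carrier exons with intermediate PSI, 1 row per exon with its length. Colours and marks show group and replicate and black bars the group means, and in SLC39A13 the replicates with the same number sit together while the means of the groups nearly coincide.

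Several genes with well known splice forms were followed by name. SLC12A2 is the sodium-potassium-chloride cotransporter NKCC1, whose coding exon of 48 nt adds a stretch to the C-terminal tail. It is shown because forms with and without it are both known in brain (chr5:127512797-127512844, plus strand).
SLC12A2 exon: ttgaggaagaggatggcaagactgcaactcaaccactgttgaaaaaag
Its PSI was 0.956 and 0.969 with RBFOXi and 0.972 and 0.976 with SCRM, with 2 to 7 skipping counts per library. Inclusion was nearly complete in all 4 libraries, and the delta PSI was -0.0115 ± 0.0064 (SE, n = 2 libraries each; limma, unadjusted p = 0.625). SLC7A6, a subunit of a cationic amino acid exchanger, had a noncoding exon of 87 nt at 0.262 and 0.249 against 0.195 and 0.189 (delta PSI 0.0631; limma, unadjusted p = 0.123). SLC3A2 encodes 4F2hc, the partner chain of that exchanger. Its exon of 93 nt (62638217 to 62638309 on chromosome 11) had PSI of 0.759 and 0.885 against 0.851 and 0.892, and the groups overlapped. These 3 exons were chosen after their values were seen. At their deepest events, SLC25A3, SLC39A14, SLC11A2, SLC3A2 and SLC38A10 had PSI that rounded to 0.994 or more in every library. All of these events but that of SLC38A10 had too few skipping counts to be tested. SLC4A7, a sodium-bicarbonate cotransporter, was at 1 and 0.979 against 1 and 0.991. For SLC8A1, the sodium-calcium exchanger NCX1, the deepest event held 4 to 24 counts per library and was not tested. SLC4A4, another sodium-bicarbonate cotransporter, was at 0.695 and 1 against 1 and 1 on 5 to 96 counts, so that 1 RBFOXi library with 6 skipping counts set its delta PSI of -0.153.

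Most member events in the table of mutually exclusive exons were pairs of neighbouring exons that are both included. The effective lengths of the forms differ in the direction that has the exon nearer the 5′ end as the inclusion form in 25721 of 25818 pairs of unequal exons, with no pair the other way and 97 of equal effective length. The difference equals that of the exons exactly in 12259 of these pairs. PSI was read as the share of the first exon of the pair. Both exons had PSI of at least 0.95 with SCRM as skipped exons in 271 of the 414 tested member pairs (65.5%, beside 69.5% of all tested pairs), and in such pairs the value compares the reads on 2 exons of the same transcripts. The median PSI of the members was 0.467 with SCRM and 0.497 with RBFOXi. The groups separated in 24.2% of the 414 pairs (beside 24.4% of all tested), downwards in 31 (7.49%, beside 8.41%) and upwards in 69 (16.7%, beside 16%), and the median delta PSI was 0.0130, beside 0.0100 for all tested pairs.

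SLC39A14 had the smallest p-value of any member in the table of mutually exclusive exons. It encodes ZIP14, which imports zinc, iron and manganese, and its pair of coding exons of 170 nt each is a known choice between versions of the same transmembrane stretch. The exons lie on the plus strand of chromosome 8, at 22267459 to 22267628 and 22269550 to 22269719. The first exon was counted 28 times beside 1657 counts of the second in RBFOXi replicate 1 and 68 beside 2729 in replicate 2. With SCRM it was counted 1 time beside 278 in replicate 1 and 11 times beside 2268 in replicate 2. PSI of the first exon was 0.0166 and 0.0243 with RBFOXi and 0.0036 and 0.0048 with SCRM, so the first exon was rare in all libraries and its share higher in both RBFOXi libraries. The delta PSI was 0.0163 ± 0.0039 (SE, n = 2 libraries each) and the change in log2 odds 1.99, with a 95% interval from 1.12 to 2.87. The unadjusted p-value was 0.000592 and the adjusted p-value 0.516 (limma), with adjusted p-values from 0.00177 to 1.00 over the alternatives. SCRM replicate 1 gave its PSI from 1 inclusion count. Without it the delta PSI was 0.0156 and the adjusted p-value 0.269 (limma). TGCATG was not found in the 300 nt before or after either exon.

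In SLC25A3, whose exons are shown above, the first exon was counted 43, 36, 26 and 43 times in RBFOXi replicates 1 and 2 and SCRM replicates 1 and 2, beside 10666 to 11393 counts of the second. PSI of the first exon was 0.0038 and 0.0033 with RBFOXi and 0.0023 and 0.0037 with SCRM. The form of most tissues was thus nearly the only form in all 4 libraries, and the groups overlapped (change in log2 odds 0.27, 95% interval -0.55 to 1.09; limma, unadjusted p = 0.474). TGCATG occurred in the first 300 nt after the first exon in 30 of 339 distinct member pairs (8.85%, beside 8.33% of all pairs). SLC25A3 was the 1 member pair with at least 2 copies there, a feature of 0.469% of all pairs. This pair was chosen after its values were seen.

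**Figure D4:**
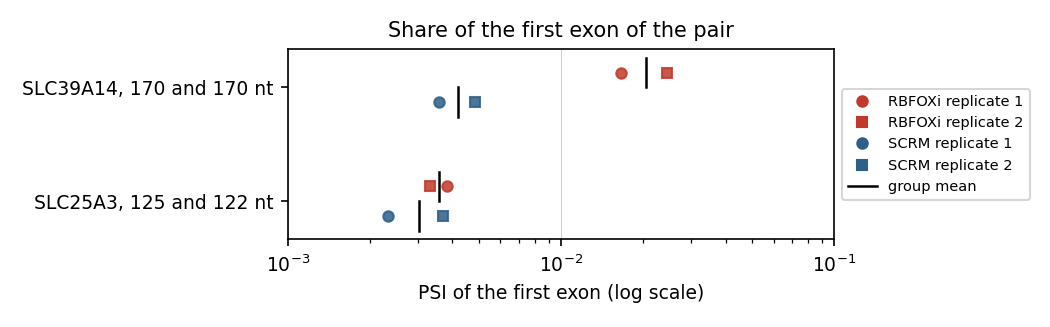
PSI of the first exon of the pair (horizontal axis, log scale) in each library for SLC39A14 and SLC25A3, with the lengths of the exons. Red marks are RBFOXi, blue marks SCRM, and black bars the group means, and the RBFOXi libraries of SLC39A14 lie at 0.0166 and 0.0243, to the right of all others.

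Among the 414 pairs, 14 had an absolute delta PSI of at least 0.1 (3.38%, beside 3.58%), and 8 of these were also separated (1.93%, beside 2.28%). In SLC29A2, the first exon of a pair of 72 and 135 nt had PSI of 0 and 0.0557 against 0.338 and 0.242. Its inclusion counts of 0, 1, 8 and 3 equal the skipping counts of the SLC29A2 exon of 135 nt above, so both events read the same molecules. SLC26A8, an anion transporter known from testis, had a pair of 55 and 185 nt at 0.579 and 0.565 against 0.338 and 0.309, on 25 to 53 counts per library (limma, unadjusted p = 0.0493). In SLC9A5, a pair of 79 and 178 nt was at 0.423 and 0.551 against 0.728 and 0.627. SLC2A11, a sugar transporter, had a pair of 102 and 151 nt at 0.562 and 0.595 against 0.456 and 0.446, on 36 to 73 counts per library. SLC25A51, the mitochondrial NAD carrier, had a pair at 0.629 and 0.655 against 0.453 and 0.570 (delta PSI 0.130). The mitochondrial carrier SLC25A30 had one at 0.528 and 0.534 against 0.324 and 0.526, and without SCRM replicate 1 its delta PSI was 0.0044 in place of 0.106. SLC30A7 (ZnT7), which moves zinc into the Golgi, had one at 0.608 and 0.599 against 0.407 and 0.576. The carrier SLC25A45 had one at 0.702 and 0.714 against 0.668 and 0.545. The pairs of SLC2A11, SLC25A51 and SLC25A30 overlap other annotated genes. Read as skipped exons with SCRM, the SLC25A30 exons of 119 and 148 nt had mean PSI of 0.991 and 0.908. It was 0.997 for the SLC25A51 exon of 122 nt, 0.982 for the SLC30A7 exon of 91 nt and 0.539 for the SLC25A45 exon of 186 nt. Where the exons are mostly included, the value of a pair can compare reads on the same transcripts. In SLC25A51, SLC25A30 and SLC30A7, SCRM replicate 1 was the lowest library. Without SCRM replicate 2, so that SCRM replicate 1 stood alone for the controls, 24 member pairs in 16 genes were called (5.80%, beside 5.35% of all tested pairs), 23 of them higher with RBFOXi. Of these 24, 12 were pairs in which both exons had PSI of at least 0.95. Whether the read distribution of SCRM replicate 1 set these calls was not tested.

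Among the choices of a 3′ splice site, 13 of 38 member events were separated (34.2%, beside 30.8%), 9 lower (23.7%, beside 14.2%) and 4 higher (10.5%, beside 16.7%). Of these, 4 had an absolute delta PSI of at least 0.1 (10.5%, beside 4.49%), and no other member did (beside 6.88%). SLC35B1 had the largest change, with PSI of the longer form of 0.604 and 0.458 with RBFOXi and of 0.648 and 0.818 with SCRM (delta PSI -0.202; limma, unadjusted p = 0.0769). Its skipping counts, 12, 22, 10 and 3, are those of the SLC35B1 skipped exon above. SLC25A16, a mitochondrial carrier, had a longer form at 0.883 and 0.856 against 1 and 0.942 on 11 to 36 counts per library. The smallest shifts moved the site by a few bases. In SLC29A1, the nucleoside transporter ENT1, 3 optional noncoding bases lie between acceptor sites, and in SLC23A2, the vitamin C transporter SVCT2, there are 4. In SLC19A1, the reduced folate carrier, 4 optional bases lie at an alternative 5′ splice site. The 3 sites are shown with 12 nt on each side and the optional bases in capitals, to show how close the alternative sites lie.
SLC29A1, chr6:44194985-44195011, plus strand: tcctgcccccagCAGgcccctgaggga
SLC23A2, chr20:4951550-4951577, minus strand: gcttttctccagCTAGgtcttgactcca
SLC19A1, chr21:46957669-46957696, minus strand: acgcgggagcagGCATgtgggtgccggg
Use of the SLC29A1 bases had PSI of 0.542 and 0.501 with RBFOXi and of 0.397 and 0.394 with SCRM, on 59 to 131 counts per library. The groups were apart and the replicates close, with a delta PSI of 0.126 ± 0.0206 (SE, n = 2 libraries each; limma, unadjusted p = 0.0903). In SLC23A2 the values were 0.573 and 0.542 against 0.833 and 0.598. The first SCRM value rested on 6 counts.

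Among the choices of a 5′ splice site, 17 of 38 member events were separated (44.7%, beside 30.1%), 8 lower (21.1%, beside 14.1%) and 9 higher (23.7%, beside 16%). An absolute delta PSI of at least 0.1 was found in 5 (13.2%, beside 7.5%), and 3 of these were separated (7.89%, beside 5.13%). SLC19A1 had PSI of 0.214 and 0.163 with RBFOXi and of 0.0361 and 0.138 with SCRM for the 4 bases shown, on 83 to 174 counts per library (delta PSI 0.101; limma, unadjusted p = 0.0505). In SLC25A3, a longer form of the first exon of the pair had 87 and 58 inclusion and 0 and 0 skipping counts with RBFOXi, and 35 and 55 inclusion and 4 and 1 skipping counts with SCRM (delta PSI 0.113; limma, unadjusted p = 0.0356). SLC9A5 had a longer exon at 0.906 and 0.819 against 0.736 and 0.738, from the same skipping counts as its exon of 178 nt. SLC11A2, the iron importer DMT1, had 5 optional noncoding bases at 0.374 and 0.403 against 0.289 and 0.323, and SLC4A7 39 coding bases at 0.889 and 0.964 against 0.836 and 0.858. For retained introns, 5 of 24 member events were separated (20.8%, beside 27.9%), 2 lower (8.33%, beside 12.7%) and 3 higher (12.5%, beside 15.3%). Of the 24, 2 had an absolute delta PSI of at least 0.1 (8.33%, beside 8.61%), and 0 of these were separated (beside 5.22%). The retained intron of SLC25A3 with the most counts had PSI of 0.0246 and 0.0433 against 0.0325 and 0.0351, and that of SLC11A2 0.832 and 0.913 against 0.689 and 0.923.

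TGCATG was searched on the strand of the gene in the introns beside the 501 exons. Within 300 nt after the exon it occurred for 35 exons in 32 genes (6.99%), beside 8.36% of all tested exons, and in the last 300 nt of the upstream intron of 39 (7.78%, beside 8.16%). Of the 35 exons with the motif downstream, 20 had a lower mean PSI with RBFOXi (57.1%), beside 58.1% of all exons with it. Their median change in log2 odds was -0.21, and that of the 466 exons without it 0.08. In all genes these medians were -0.10 and 0.07. The value for the members rests on the window, since with the first 200 nt the median of the 28 members with the motif was 0.05, against -0.16 in all genes. The groups separated downwards in 5 and upwards in 3 of the 35 (22.9%, beside 35%). The delta PSI of the 35 ran from -0.0867 to 0.0768, and 22 of them had PSI of at least 0.95 with SCRM.

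In the first 60 nt, a window chosen after the data were seen, the motif was found for 10 member exons in 10 genes (2.00%, beside 2.20%). The exons of ABI1, FMNL3 and FAM126A that changed have it from base 54, 27 and 26 of the intron. Of the 10 members 5 had a lower mean PSI with RBFOXi, beside 65.1% of all 674 exons with the motif this close, 8 of which were called. The SLC9A5 exon of 164 nt before the intron shown above, with the motif from base 41, had PSI of 0.410 and 0.409 with RBFOXi and of 0.264 and 0.420 with SCRM. The RBFOXi libraries lay within the range of the SCRM libraries. The SLC35B1 exon of 102 nt with the motif from base 25 had PSI of 0.687 and 0.554 against 0.598 and 0.617. The SLC37A2 exon of 86 nt, in a sugar-phosphate transporter, had 0.756 and 0.746 against 0.907 and 0.633, and the SLC9B2 exon of 137 nt 1 and 0.919 against 1 and 0.765. SLC35E1, a member of the nucleotide sugar transporter family, had 0.984 and 0.973 against 0.992 and 0.981 at an exon of 138 nt. In none of these 5 did the groups separate. Of all 10 members with the motif this close, 1 separated downwards and 0 upwards, beside 210 downwards and 60 upwards of the 674 exons.

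**Figure D5:**
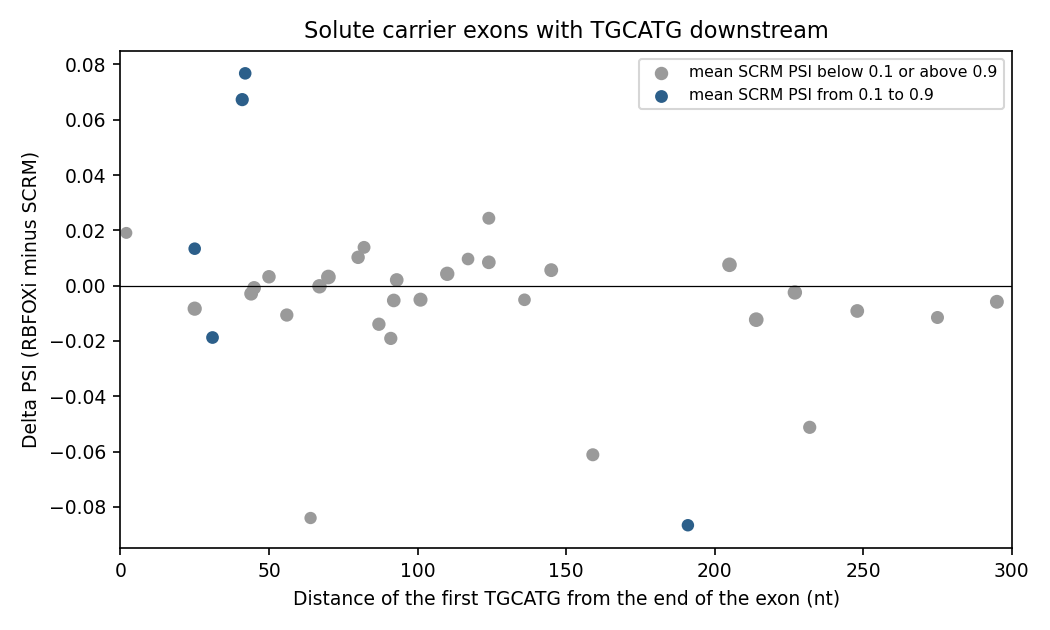
Delta PSI (RBFOXi minus SCRM, vertical axis) of the 35 solute carrier exons with TGCATG in the first 300 nt downstream, against the distance of the first copy from the exon in nt (horizontal axis). Each point is 1 exon, its size growing with the log of its mean counts and blue where mean PSI with SCRM lay from 0.1 to 0.9, and the values run from -0.0867 to 0.0768 on both sides of 0.

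Other genes of membrane transport gave 0 calls as well. Among skipped exons, 134 events of 22 ABC transporter genes were tested, which pump substrates with ATP, with 5 at an unadjusted p-value under 0.05 (limma; 3.73%, beside 3.61% of all tested events) and 35.8% separated (beside 30.8%). The P-type and V-type ion pumps had 1 of 115 events at that level (0.87%) and 21.7% separated. Carriers of solute carrier type whose symbols do not start with SLC had 5 of 112 (4.46%) and 33% separated. BSG, a partner chain of monocarboxylate transporters, had 4 tested events, none at that level, and the smallest adjusted p-value in these groups rounded to 1.00 (limma).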

How the data were processed

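RNA-seq of U87MG cells (2 RBFOXi and 2 SCRM libraries) was analysed from 5 deposited event tables. The authors aligned paired-end reads to hg19 by STAR (2.4.2a, per the submitters' processing notes) and counted them with rMATS. Each deposited cell holds the raw counts of both replicates, without normalization. The deposited p-values, FDR and inclusion differences were not used. The log2 odds of inclusion (pseudocount 0.5, effective lengths divided out) were fitted by condition, using limma 3.58.1 under R 4.3.3, with Benjamini-Hochberg adjustment over each whole table. An event entered the test with 5 or more counts per library, a mean of 20 or more, and 4 or more counts of each form in total. A call required an adjusted p-value below 0.05 and a delta PSI of 0.1 or more in size. The fit was tested on simulated data, with changes set only at skipped exons of intermediate inclusion. Recovery at near-constitutive exons was not measured.

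All skipped exon events summed to between 114415530 and 136097319 counts per library. A read can count in several events. The study describes independent biological replicates, and p-values measure the spread between these libraries. The labels give Cy5 for only 1 of the RBFOXi libraries, so replicate spread and dye cannot be told apart in that group. With 2 against 2, an exact permutation test of 1 value could not go below 0.333. Sequences were read from GRCh37 (hg19) and exons placed with GENCODE genes lifted to it.

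The members and gene lists were chosen with earlier results of these data known. Named events were all calls, the separated events of that size of delta PSI (10 lowest and highest skipped exons, 5 and 5 exclusive pairs, 3 and 3 of other types), the 5 smallest p-values among skipped exons and among pairs, the deepest event per table of 10 genes with known splice forms, and 3 exons followed by RT-PCR. The deepest intermediate exons and others named as such were added after values were seen, and 1 named event is not reported here. Alternatives covered the test, pseudocount, filters, centring, thresholds, replicate block, PSI definition, motif window and each library left out.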

Additional observations from a re-analysis of the deposited data

How the results depend on the processing

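The number of called solute carrier events was 0 under every alternative that was run for skipped exons, 3′ sites, 5′ sites and introns, and under all but 1 for mutually exclusive pairs, where leaving out 1 library gave between 0 and 24, the highest without SCRM replicate 2. Without that library the SLC25A30 pair (delta PSI 0.207, adjusted p = 0.0154, limma) and the SLC25A51 pair (0.189, adjusted p = 0.0108, limma) passed the threshold. Over all genes, 27 skipped exons were called, against 48 with the quasi-binomial F test, 1 with a pseudocount of 0.1, 44 with the filter of 1 count per library, 119 with the replicate block, and between 1 and 69 with 1 library left out. For mutually exclusive pairs 0 were called over all genes, against 77 with the replicate block, 5 with centred log2 odds, 2 with a pseudocount of 1, 2 with the quasi-binomial F test and between 4 and 1400 with 1 library left out. Over all genes, 3′ and 5′ sites had 0 calls, against up to 12 and up to 5 with 1 library left out and 1 of the 5′ sites with the quasi-binomial F test.

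The share of separated skipped exons among the members was 18.4% with the filter of 1 count. That filter changes the set of all tested events too, so the 30.8% of the main filter is no background for it. The share with TGCATG was 10.2% in 500 nt, 24.6% for GCATG in 300 nt and 2% in 60 nt, a window chosen after the data were seen. With 1 library left out, the median delta PSI lay between -0.00153 and 0.

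Of 621 values of 69 named events under the alternatives, 589 kept their direction and their side of the threshold, 30 had the opposite sign and 2 passed the threshold, all of the last 32 with 1 library left out. The range of delta PSI over the libraries left out was -0.0163 to 0.00441 for SLC4A7, -0.305 to 0 for SLC4A4, -0.0309 to 0.0366 for SLC25A26, -0.0108 to 0.145 for SLC9A5 (164 nt), -0.0021 to 0.108 for SLC25A51, -0.113 to 0.0132 for SLC3A2, -0.0600 to 0.0856 for SLC39A13, -0.00892 to 0.0648 for SLC27A5, -0.0198 to 0.068 for SLC38A7 and -0.0106 to 0.0415 for SLC30A5, all skipped exons. For exclusive pairs it was -0.00014 to 0.00123 for the shown SLC25A3 pair and -0.00781 to 0.0363 for its deepest pair, -0.00486 to 0.0079 for the deepest SLC39A14 pair, -0.0095 to 0.0331 for SLC11A2, -0.00216 to 0.0105 for SLC3A2, -0.00608 to 0.0528 for SLC25A26 and -0.0443 to 0.0759 for SLC38A10. For 3′ sites it was -0.00174 to 0.00227 in SLC25A3 and -0.00446 to 0.0128 in SLC12A2, and for introns -0.00922 to 0.00952 in SLC25A3 and -0.0512 to 0.183 in SLC11A2. The cause was not tested. The 69 events were all of solute carrier genes and leave out the scale exons of ABI1, FMNL3 and FAM126A. Those exons lost their calls with a pseudocount of 0.1, so the absence of member calls at that setting says little.

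The labels give both groups the replicate numbers 1 and 2. Deviations of samples with the same number correlated at 0.0944 over skipped exons and 0.0881 over exclusive pairs, 0.0952 over 3′ sites, 0.0836 over 5′ sites and 0.118 over introns. Over the members alone they ran from -0.176 for 5′ sites to 0.451 for the 24 introns. With only 2 pairs and no shared batch in the labels, the samples were taken to share only a number. With the replicate block 0 members were called in each table, and the adjusted p-value of the SLC39A14 pair was 0.00177 (limma) at the same delta PSI of 0.0163. The planned edgeR test was not run. The SE of the change had a median of 1.02 log2 units of odds over the 501 exons and of 0.92 over the 87 with 1000 or more counts. The median PSI of these 87 with SCRM was 0.992, so the 2 medians do not show the effect of depth alone. At intermediate PSI, the SE was 0.32 for the SLC25A26 exon of 157 nt, on 1301 to 1729 counts per library. It was 0.75 for the SLC10A7 exon of 111 nt, on 14 to 55 counts.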
